A study of Homo sapiens with 6 samples.

Results

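H3K27ac peaks were described at the genes of 5 hematopoietic growth factor receptors, FLT3, KIT, CSF1R, CSF3R and CSF2RB, which are 5 of the 20007 protein-coding genes with an annotated canonical transcription start. The members were chosen by name and not by their values, although earlier results of these data were known. For each gene, peaks were taken from the gene body plus 50 kb on each side (100 kb for KIT), here called the locus, and from a promoter window reaching 2500 bases to each side of the canonical start. Runs of 4 values below follow the order Kasumi-1 control, Kasumi-1 knockdown, MV4-11 control and MV4-11 knockdown. The loci held 30 of 22768, 33 of 23878, 28 of 24523 and 26 of 22136 peaks on chromosomes 1 to 22, X and Y.

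The study asked what knockdown of ANP32B, a histone chaperone, does to histone acetylation in acute myeloid leukemia (AML) cells. H3K27ac, acetylation of lysine 27 of histone H3, was mapped by CUT&Tag, in which an antibody guides a transposase to cut and tag DNA near the modified histone. There were 2 human AML lines: Kasumi-1, which carries the RUNX1-RUNX1T1 fusion and an activated KIT receptor, and MV4-11, which carries a KMT2A fusion and an internal tandem duplication of FLT3. Each line was compared as a control (NC, called untreated in the labels) and as a knockdown (sh-ANP32B), with lentiviral short hairpin RNA against ANP32B and puromycin selection. The sources used here do not say which ANP32B hairpin was used for these libraries, nor whether the NC cells of this assay carried the control hairpin. Each of the 4 groups had 1 peak list, made after replicates were merged, so no spread between replicates and no test could be had. All differences below describe these libraries. The lists gave positions and widths of peaks without heights or read totals, and the depth behind a peak is therefore unknown. A lower share of cells with the mark and less of it in each cell cannot be told apart in such bulk samples.

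The receptors fall into 2 families. FLT3, KIT and CSF1R are receptor tyrosine kinases that dimerise on binding FLT3 ligand, stem cell factor, or CSF-1 and IL-34, and then phosphorylate each other. CSF3R, the receptor for G-CSF, and CSF2RB, the signalling chain shared by the receptors for GM-CSF, IL-3 and IL-5, have no kinase of their own and signal through JAK kinases and STAT factors. H3K27ac marks active promoters and enhancers, and in myeloid cells such genes are known to be controlled from introns and flanking DNA by RUNX1, the ETS factor PU.1 and C/EBP factors.

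The sequences on which the description turns are the bases before the FLT3 start, where the lines differed, and stretches of 3 distal sites. Each distal stretch is the middle 300 bases of the longest part of the site that all 4 lists covered. The FLT3 stretch is the RefSeq promoter entry (GRCh38.p14), 250 bases at chr13:28100577-28100826, written 5′ to 3′ on the minus strand, the strand of the gene. The distal stretches are from hg38, plus strand, with no base in an annotated exon: chr4:54708984-54709283 in KIT intron 6, chr1:36486693-36486992 upstream of CSF3R and chr5:150122509-150122808 upstream of CSF1R, inside the PDGFRB gene. Capitals mark matches on either strand to short letters typical of blood transcription factors. The RUNX family was searched as TGTGGT. The ETS family, to which PU.1 belongs, was searched as GAGGAA. The C/EBP family was searched as TTGCNNAA, where N is any base. The GATA family was searched as AGATAA, and the AP-1 dimers of FOS and JUN were searched as TGANTCA.
FLT3 promoter: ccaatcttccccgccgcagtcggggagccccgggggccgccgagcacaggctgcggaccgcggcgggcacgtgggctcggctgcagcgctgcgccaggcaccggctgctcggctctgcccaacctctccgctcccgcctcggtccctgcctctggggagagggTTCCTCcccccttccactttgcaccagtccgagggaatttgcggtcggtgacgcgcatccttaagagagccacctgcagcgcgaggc
KIT intron 6: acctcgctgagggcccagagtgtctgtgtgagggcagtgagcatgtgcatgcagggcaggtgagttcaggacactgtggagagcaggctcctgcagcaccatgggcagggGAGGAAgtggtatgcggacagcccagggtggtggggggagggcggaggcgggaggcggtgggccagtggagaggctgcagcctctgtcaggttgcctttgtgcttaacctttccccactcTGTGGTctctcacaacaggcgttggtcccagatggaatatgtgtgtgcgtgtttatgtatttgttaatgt
CSF3R upstream: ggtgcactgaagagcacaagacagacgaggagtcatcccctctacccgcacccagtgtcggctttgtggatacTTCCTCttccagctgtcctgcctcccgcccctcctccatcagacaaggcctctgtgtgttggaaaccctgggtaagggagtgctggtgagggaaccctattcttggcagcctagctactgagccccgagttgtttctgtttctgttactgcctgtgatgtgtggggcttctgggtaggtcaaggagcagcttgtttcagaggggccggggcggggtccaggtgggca
CSF1R upstream: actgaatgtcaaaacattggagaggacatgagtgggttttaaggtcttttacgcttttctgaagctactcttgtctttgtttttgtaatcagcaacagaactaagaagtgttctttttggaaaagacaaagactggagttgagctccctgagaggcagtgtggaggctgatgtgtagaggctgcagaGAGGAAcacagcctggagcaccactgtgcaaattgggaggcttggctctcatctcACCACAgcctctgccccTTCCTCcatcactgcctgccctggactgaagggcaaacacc
The 250 bases before the FLT3 start held 1 ETS match, 26 CpG dinucleotides and 72.0% G and C. The KIT stretch held 1 RUNX and 1 ETS match, the CSF3R stretch 1 ETS match, and the CSF1R stretch 1 RUNX and 2 ETS matches, and no match overlapped another. These are not all the shared distal sites of the loci. A further CSF1R site, 56.3 kb upstream, held 0 RUNX and 0 ETS matches, 1 GATA match and 1 AP-1 match in its middle stretch. A match is a description of the letters only. The background was 5299 shared distal sites of the genome with such a common part of 300 bases or more, cut in the same way. Of these, 24.0% held the RUNX letters, 32.8% the ETS letters, 13.0% the C/EBP letters, 8.9% the GATA letters and 13.7% the AP-1 letters. Among 35116 promoter entries the shares were 11.0%, 23.6%, 9.1%, 9.2% and 6.6%. The promoter stretches of KIT, CSF1R and CSF3R lie for 68, 53 and 250 bases in exons of other transcripts and are not shown. The FLT3 stretch does so for 16 bases. They held 0 matches for KIT, 1 RUNX and 2 ETS matches for CSF1R and 1 ETS match for CSF3R, with 76.4%, 53.2% and 64.4% G and C beside a median of 58.0% over all entries. CSF2RB was not matched in the promoter table.

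The 4 lists differed as wholes. They covered 32.7, 33.7, 27.9 and 23 Mb. The narrowest peak was 357, 354, 289 and 275 bases wide in the same order, so a narrow peak could enter an MV4-11 list and not a Kasumi-1 list. Of 10 myeloid marker genes, 6, 6, 6 and 4 had a promoter peak, beside 47.7%, 45.3%, 35.8% and 28.6% of all genes. SPI1, which encodes PU.1, was covered by 3084, 3042, 3008 and 3127 bases. Others did not stay level: CEBPA, which encodes C/EBP alpha, had 3148, 3103, 1722 and 0 bases and ELANE, neutrophil elastase, 3074, 2547, 420 and 0, so both lacked a peak in the MV4-11 knockdown, as CSF3R did. In MV4-11, 24.4% of all genes with a promoter peak in NC lacked one after knockdown. CD33 (1464 and 1411 bases) and ITGAM (885 and 870 bases) were marked in Kasumi-1 alone. PTPRC (403 and 8 bases) and LYZ (683 and 324 bases) were marked in MV4-11 alone. MPO and CD14 had none in any list. Of the 3 Kasumi-1 markers, RUNX1T1 and POU4F1 had none, and CD34 had 180 and 132 bases in the Kasumi-1 lists and none in MV4-11. The MV4-11 markers MEIS1, HOXA9 and HOXA10 had promoter peaks in all 4 lists, so presence of a peak did not separate the lines. By covered bases, HOXA9 (4335, 4707, 769 and 659) and HOXA10 (5001, 5001, 2648 and 1638) were higher in the Kasumi-1 lists. MEIS1 had 3103, 3264, 3337 and 3123 bases. Of these line markers, CD34 alone went with the names of the lines, and HOXA9 and HOXA10 went the other way. The names are those of the sample labels. Of the other lineages, KLF1 was marked of 4 erythroid genes (1282, 1120, 248 and 0 bases), CD79A (1519, 1313, 1127 and 1128 bases) was marked among the B cell genes reported here, and none of 3 T cell or 4 epithelial or stromal genes. The part of these markers in the results below was not tested.

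FLT3, the receptor for FLT3 ligand on early progenitors, lies on the minus strand at chr13:28003274-28100592 (hg38) with 24 exons in its canonical transcript. Its locus held 7 peaks and 8638 bases in Kasumi-1 control cells and 7 peaks and 8861 bases after knockdown, against 5 peaks and 5436 bases in MV4-11 control cells and 3 peaks and 4291 bases after knockdown. Both Kasumi-1 lists were higher than both MV4-11 lists. Per kb of locus this was 43.8, 44.9, 27.5 and 21.7 bases, which stood at percentiles 73.2, 73.4, 72.1 and 72.8 of all genes in the respective list. FLT3 thus kept nearly the same place within each list while its covered bases differed.

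At the FLT3 start the lines had different peaks. A peak of 963 bases crossed the start in each Kasumi-1 list, from 679 bases before it to 283 bases after it in NC and from 656 before to 306 after in sh-ANP32B, and covered the promoter stretch printed above. No MV4-11 list had a peak there. A merged site between 1164 and 2672 bases upstream held 1166 and 1217 bases in the Kasumi-1 lists and 299 in the MV4-11 control. The MV4-11 knockdown list had no peak there. The Kasumi-1 control peak spanned 1436 to 2601 bases upstream, and the Kasumi-1 knockdown peak spanned 1456 to 2672. The MV4-11 control peak spanned 1164 to 1462 bases upstream. It overlapped the Kasumi-1 peaks only at its edge, lay mostly nearer the start, and is not a narrower form of the same peak by position. The bases under peaks in the whole promoter window were therefore 2028, 2008, 299 and 0. The MV4-11 NC peak of 299 bases was narrower than any peak in the Kasumi-1 lists, so the absence of an MV4-11 promoter peak after knockdown rests on a peak near the lower limit of that list. Intron 1 also differed by line. Sites of 429 and 410 bases and of 404 and 409 bases were found in the Kasumi-1 lists alone, and a site of 870 bases in NC and 553 bases in sh-ANP32B, 5.9 kb after the start, in the MV4-11 lists alone.

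The widest peak within FLT3 lay far from the start, in intron 15, 66.9 kb into the gene. It was present in all 4 lists with 2741, 2826, 1868 and 2285 bases, and in MV4-11 it was wider after knockdown. It ranked at percentile 89 of peak widths in Kasumi-1 NC and 92 in MV4-11 sh-ANP32B. A peak of 292 bases in intron 9 was found in MV4-11 NC alone. The remaining wide peak of the locus, with 2492, 2498, 2107 and 1453 bases, covered the start of PAN3, which encodes a subunit of a deadenylase complex, 37969 bases from the FLT3 start. CDX2 and URAD, downstream of FLT3, had no promoter peak in any list.

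**Figure D1:**
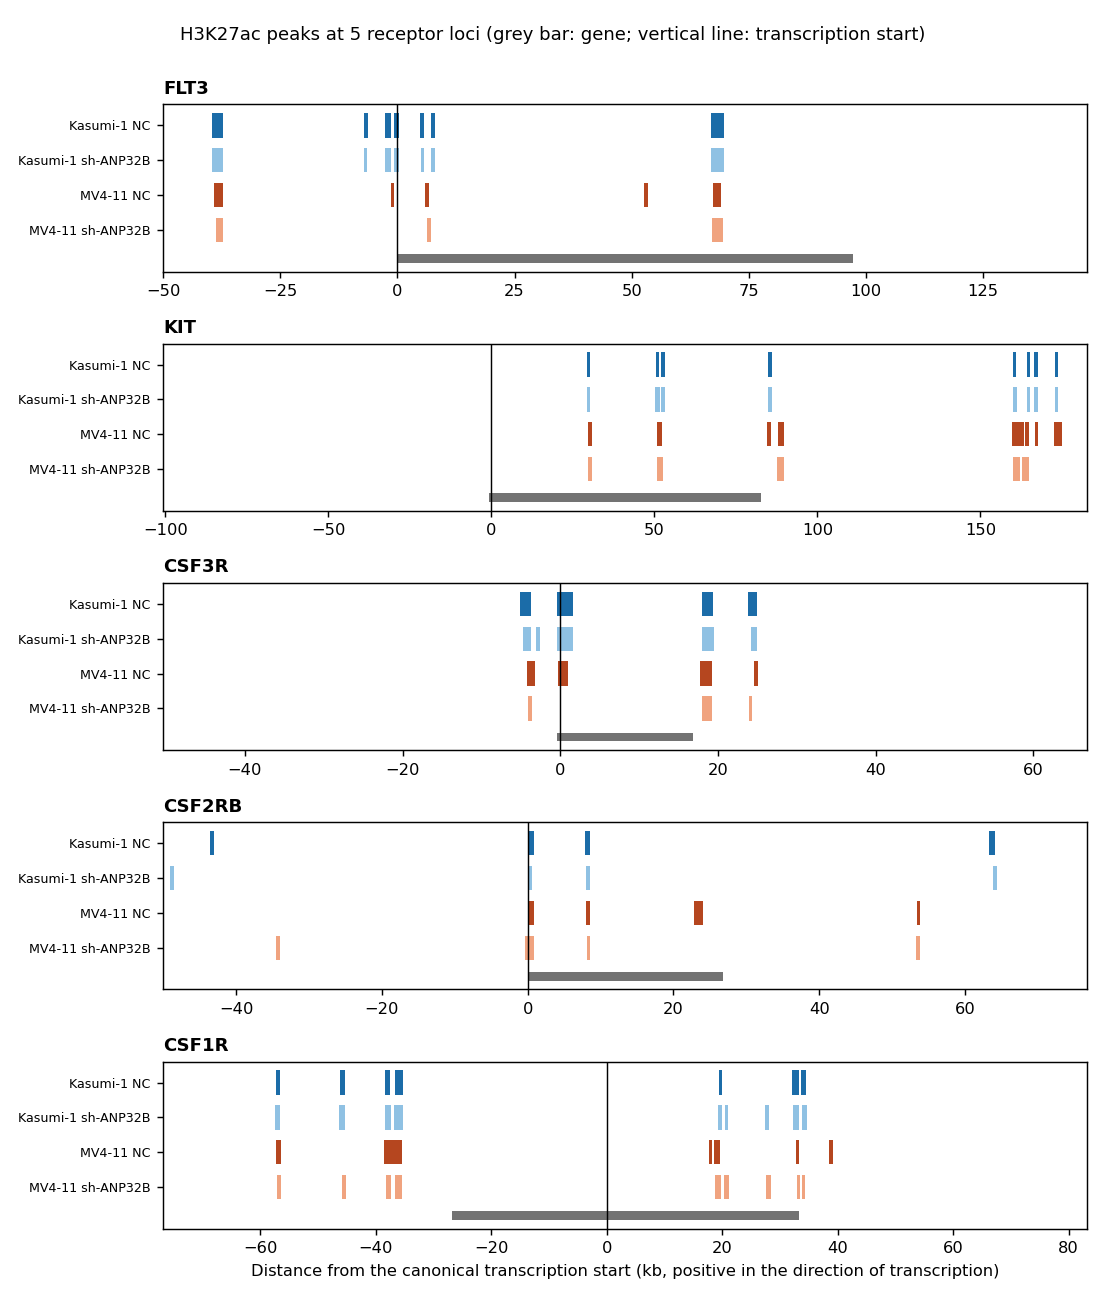
Peaks of the 4 lists at the 5 loci, with distance from the canonical start in kb on the horizontal axis, 1 row per library and the gene as a grey bar. Peaks narrower than the drawing allows are widened to stay visible. FLT3 has peaks across its start in the Kasumi-1 rows alone, and KIT has none near its start and a group of peaks 159.6 kb and more after it.

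KIT, the receptor for stem cell factor, lies on the plus strand at chr4:54657267-54740783 with 21 exons. Its promoter window held no peak in any of the 4 lists, and neither did the windows around its other annotated starts. The locus held 8 peaks and 5371 bases in Kasumi-1 control cells and 8 and 5847 after knockdown, against 9 and 11580 in MV4-11 control cells and 7 and 7644 after knockdown. MV4-11 was thus higher than Kasumi-1 at KIT, the reverse of FLT3. No peak lay in the 100 kb upstream in any list. Within the gene body the lists had 2175, 2228, 2841 and 2894 bases, and downstream 3196, 3619, 8739 and 4750 bases. The lower MV4-11 value after knockdown therefore came from the downstream flank, and the gene body was slightly higher.

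Inside KIT, 2 sites were present in all 4 lists. The site in intron 1, 29.2 kb after the start, had 557, 467, 1406 and 1201 bases, wider in MV4-11. The site from intron 6 to intron 7, 50.3 kb after the start at chr4:54708220-54710473, had 1618, 1761, 1435 and 1693 bases and holds the KIT sequence printed above. It was wider in sh-ANP32B than in NC in both lines.

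Downstream of KIT, the site with the widest range lay 159.6 kb after the start, 76853 bases past the gene end, at chr4:54817568-54821233. It had 518 and 485 bases in the Kasumi-1 lists, 1 unbroken peak of 3666 bases in MV4-11 NC, at percentile 97 of that list, and 2191 bases in 3 pieces in MV4-11 sh-ANP32B. A neighbouring site 163.7 kb after the start had 570, 672, 750 and 502 bases. The sites at 84.7 kb (594, 592, 649 and 0 bases), 166.5 kb (978, 1234, 714 and 0 bases) and 172.6 kb (536, 636, 575 and 0 bases) were in 3 lists and absent in MV4-11 sh-ANP32B. A site at 87.7 kb was found in the MV4-11 lists alone, with 1933 bases in NC and 2057 bases in sh-ANP32B, and it was the widest peak of the locus in MV4-11 sh-ANP32B. Which gene these downstream sites act on is not given by peak positions.

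CSF1R, the receptor that supports monocytes and macrophages, lies on the minus strand at chr5:150053291-150113372 with 21 exons. Its canonical promoter window had no peak in any list, nor had the window of the start at chr5:150113372, 26818 bases further upstream. The windows of annotated starts within the gene, at chr5:150067181 and chr5:150054820, held 1, 2, 2 and 2 peaks and 2, 2, 1 and 2 peaks. The locus was nonetheless covered in all 4 lists, with 7, 9, 6 and 9 peaks and 6487, 7649, 6592 and 7155 bases. It was the member with more covered bases in sh-ANP32B than in NC in both lines. In MV4-11 that direction turned when peaks under 1000 bases were left out, to a log2 ratio of -0.75, and in Kasumi-1 to -0.03. Its place among all genes was at percentiles 71.6, 74.7, 81.7 and 87.7.

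At the CSF1R locus, the widest site was upstream of the canonical start, 35.3 kb away at chr5:150121877-150125170, within the body of PDGFRB, which encodes a receptor for platelet-derived growth factor and had no promoter peak in any list. It had 2377, 2462, 3248 and 2227 bases, as 1 peak of 3248 bases in MV4-11 NC and as 2 peaks in each of the other lists. A site 56.3 kb upstream was present in all 4 lists with 748, 845, 936 and 733 bases, and another 45.4 kb upstream had 822, 930, 0 and 378 bases. Within the gene, a site in intron 10 had 582, 591, 1077 and 1097 bases, and a site across the 3′ end had 1134, 1019, 464 and 510 bases. Sites in intron 14 (452 bases in Kasumi-1 and 885 in MV4-11) and in intron 10 (442 and 845 bases) were in both sh-ANP32B lists and in neither NC list. The Kasumi-1 peaks were narrow, at percentiles 14.1 and 12.7 of widths in their list. The share of such sites in the genome was not counted.

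**Figure D2:**
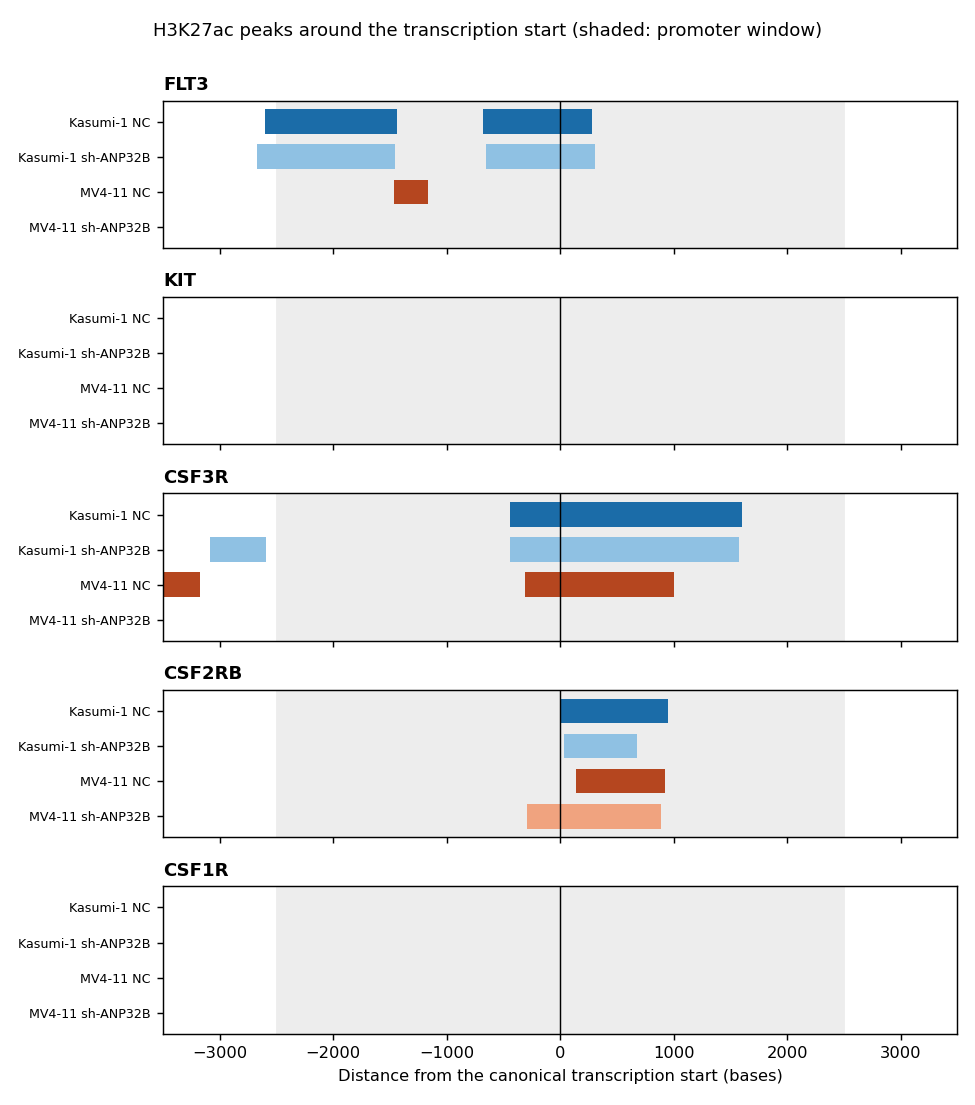
Peaks around each canonical start, with distance from the start in bases on the horizontal axis, 1 row per library and the promoter window shaded. The KIT and CSF1R windows are empty in all 4 rows, CSF3R is empty in MV4-11 sh-ANP32B, and CSF2RB has a peak in every row.

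CSF3R, the G-CSF receptor of the granulocyte lineage, lies on the minus strand at chr1:36466043-36483278 with 17 exons. A peak crossed its start with 2043 bases in the Kasumi-1 control, 2020 in the Kasumi-1 knockdown and 1321 in the MV4-11 control, and the MV4-11 knockdown list had none there. The site reached from the start through exon 2 into intron 2. A site 3.2 kb upstream at chr1:36486089-36487969, which holds the CSF3R sequence printed above, was present in all 4 lists with 1327, 1019, 984 and 547 bases, narrower in sh-ANP32B in both lines. The locus held 4, 5, 4 and 3 peaks and 5763, 5752, 4389 and 2214 bases. It also contained the start of MRPS15, a mitochondrial ribosomal protein gene, with 1357, 1476, 1643 and 1319 bases. A merged site in the MRPS15 body, 23.9 kb after the CSF3R start, had 1036, 745, 441 and 348 bases. Its MV4-11 peaks, at chr1:36457848-36458288 in NC and chr1:36458682-36459029 in sh-ANP32B, did not overlap each other and were joined through the Kasumi-1 peaks. OSCP1 in the same locus had no promoter peak in any list. Of the bases in the CSF3R gene body itself, 1963, 1945, 1321 and 0 were covered.

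CSF2RB, the common beta chain, lies on the plus strand at chr22:36913628-36940439 with 14 exons. It was the member with a promoter peak in all 4 lists, at 944 and 637 bases in the Kasumi-1 control and knockdown and at 783 and 1177 bases in those of MV4-11. The knockdown list was the narrower in Kasumi-1 and the wider in MV4-11. A site of intron 1 and exon 2, 7.9 kb after the start, was also in all 4 lists with 630, 567, 481 and 458 bases. Its locus held 4 peaks in each list but only these 2 sites in common, with 2951, 2012, 2913 and 2398 bases in total. A peak of 1187 bases over the last exons, from intron 12 to exon 14, was found in MV4-11 NC alone. The downstream sites were separate by line, with 830 and 358 bases at 63.4 kb in the Kasumi-1 lists and 462 and 360 bases at 53.3 kb in the MV4-11 lists. The upstream sites, of 547, 450 and 403 bases, were each in 1 list, and those of 547 and 450 bases lay in NCF4, which encodes a subunit of the phagocyte NADPH oxidase.

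Promoter windows of 3 members, FLT3, CSF3R and CSF2RB, had a peak in the Kasumi-1 control, where 47.7% of all genes did. The same 3 had one in the Kasumi-1 knockdown (45.3% of all genes) and in the MV4-11 control (35.8%), and 1, CSF2RB, in the MV4-11 knockdown (28.6%). In Kasumi-1, 0 of the 3 were without a peak after knockdown (6.79% of genes with a promoter peak in NC), and 0 of the other 2 had a peak in sh-ANP32B alone (1.60% of genes without one in NC). The bases in the window were lower in sh-ANP32B for all 3, with 2008 against 2028 bases at FLT3, 2020 against 2043 at CSF3R and 637 against 944 at CSF2RB, where 47.2% of genes with a peak in both Kasumi-1 lists were lower. In MV4-11, 2 of the 3, FLT3 and CSF3R, had no peak after knockdown (24.4% of all such genes), and 0 of the other 2 had a peak in sh-ANP32B alone (2.45%). The member with a peak in both MV4-11 lists, CSF2RB, was higher in sh-ANP32B, where 75.6% of such genes were lower. With 3 members at most, these counts are a description of named genes.

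**Figure D3:**
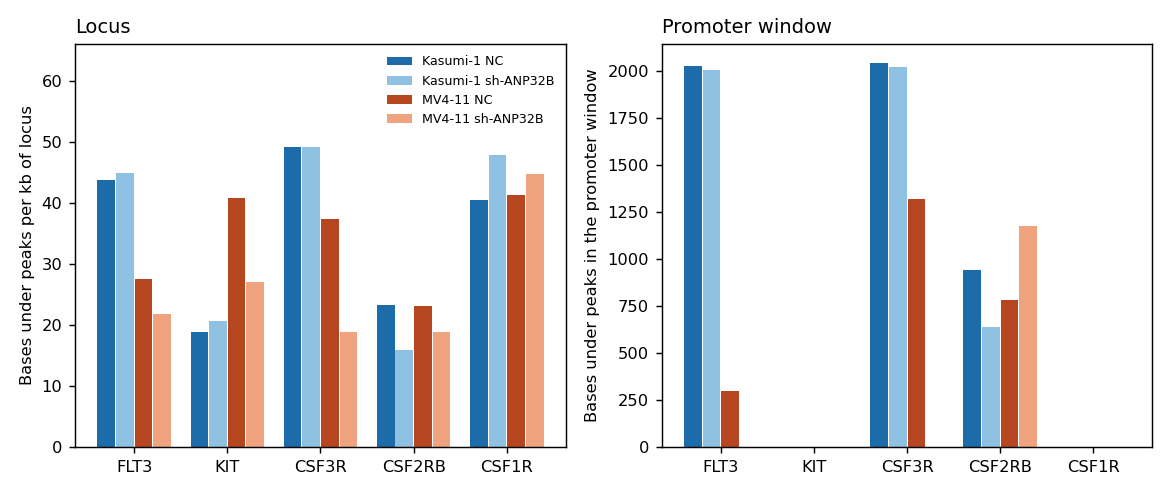
Bases under peaks per kb of locus (left) and bases under peaks in the promoter window (right) for each member, 1 bar per library and no error bars because each group has 1 list. The tallest of the KIT locus bars is MV4-11 NC at 40.8 bases per kb, and the FLT3 and CSF3R promoter bars are missing in MV4-11 sh-ANP32B.

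Over the whole loci, each member was compared between libraries as the log2 ratio of bases under peaks, with 500 bases added to both values. In Kasumi-1, sh-ANP32B over NC gave 0.035 for FLT3, 0.11 for KIT, 0.22 for CSF1R, -0.0025 for CSF3R and -0.46 for CSF2RB. The median over the members was 0.035 and over all 15179 genes with a peak 0.019. None of the 5 was lower or higher by 1.5-fold, as were 4.73% and 2.98% of all genes. CSF2RB was the lowest member, at percentile 6.6 of all genes, with 2951 bases in NC and 2012 in sh-ANP32B, and was higher instead (0.18) with flanks of 100 kb. KIT went past 1.5-fold with limits on width, to 0.86 with peaks of 1000 bases or more and 2.60 with the 10000 widest peaks of each list. These values came from peaks near the limits. A KIT peak of 978 bases in NC was 1234 bases wide in sh-ANP32B, and no KIT peak of NC was among the 10000 widest. All KIT bases were 5371 in NC and 5847 in sh-ANP32B. The sign of FLT3 turned, to -0.0047, when bases were scaled to the covered length of each list, and that of CSF3R turned with flanks of 100 kb (0.13) and once peaks 1000 bases apart or closer were joined (0.14).

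In MV4-11 the ratio was -0.31 for FLT3, -0.57 for KIT, 0.11 for CSF1R, -0.85 for CSF3R and -0.24 for CSF2RB. The members' median of -0.31 equalled that of all 14912 genes to 2 decimals, and 4 of 5 members were below 0 beside 77.3% of all genes. CSF3R, at 0.555 of its NC value, was the member lower by 1.5-fold, as were 29.7% of all genes, and 0 were higher by 1.5-fold, as were 4.85%. Scaling each list to its covered length moved the median of all genes by 0.23 in MV4-11, to -0.08. On that scale the MV4-11 ratios were -0.06 for FLT3, -0.31 for KIT, 0.37 for CSF1R, -0.62 for CSF3R and -0.0024 for CSF2RB. CSF3R was then still lower by 1.5-fold, and not with flanks of 100 kb (-0.33). Within gene bodies alone, KIT was at 0.02, CSF2RB at -0.68 and CSF3R at -1.86.

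**Figure D4:**
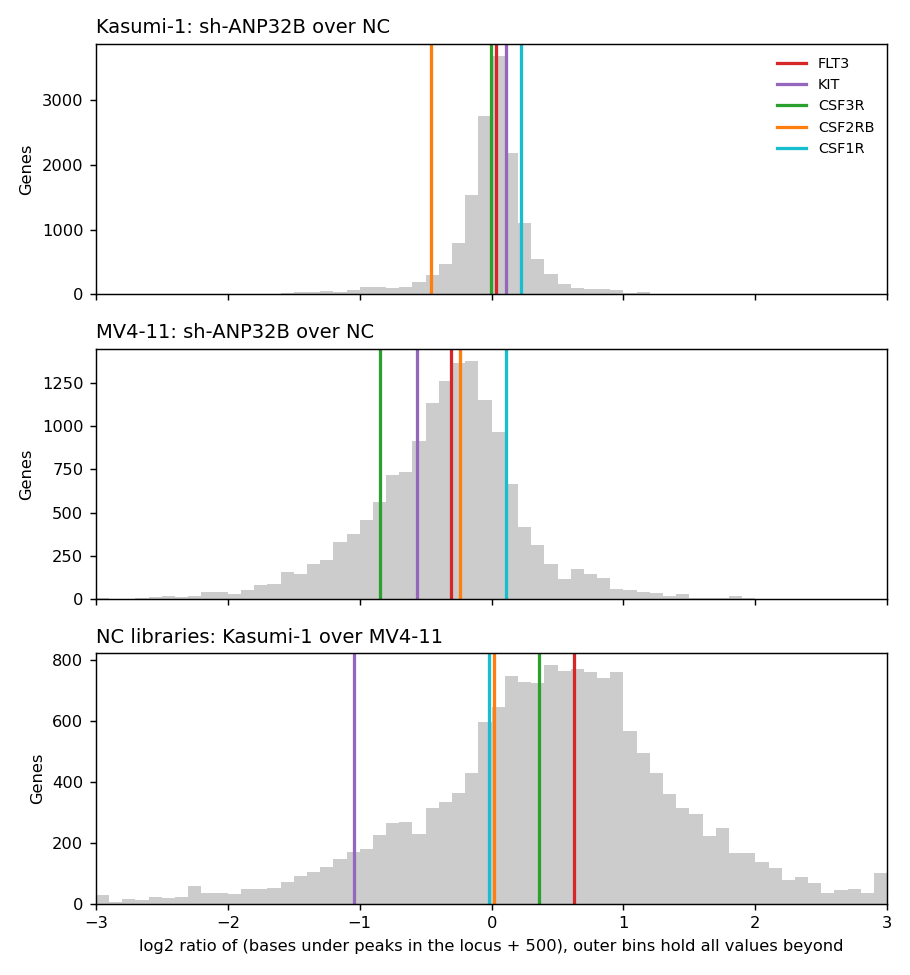
Distribution over all genes of the log2 ratio of bases under peaks in the locus plus 500 (grey, bins of 0.1), for sh-ANP32B over NC in each line and for Kasumi-1 NC over MV4-11 NC, with coloured lines for the 5 members. In MV4-11 CSF3R is the lowest member at -0.85, and between the NC libraries KIT lies at -1.04 below the other members.

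Between the control libraries, Kasumi-1 NC over MV4-11 NC gave 0.62 for FLT3, -1.04 for KIT, -0.02 for CSF1R, 0.36 for CSF3R and 0.02 for CSF2RB, beside a median of 0.49 over 15796 genes. FLT3 was the member higher in Kasumi-1 by 1.5-fold, as were 45.3% of all genes, and KIT was the member lower by 1.5-fold, as were 13.4%. The KIT ratio of Kasumi-1 to MV4-11 was 0.486 and stood at percentile 6.84 of all genes, with 100 kb flanks for KIT and 50 kb for the other genes. With 50 kb flanks KIT had 2769 bases in the Kasumi-1 control and 5423 in that of MV4-11, and in the gene body alone its log2 ratio was -0.32. FLT3 was no longer past 1.5-fold in the gene body alone (0.31) or when scaled to covered length (0.41). The signs of CSF2RB and CSF1R, both close to 0, were not stable. CSF2RB turned to -0.18 when scaled, to -0.51 with 25 kb flanks or the gene body, and to -1.75 with either limit on width, and CSF1R went to -0.66 with peaks of 1000 bases or more and -1.33 with the 10000 widest peaks, and was above 0 with 100 kb flanks (0.17). Scaling moved the median of all genes by -0.20, to 0.29. These ratios share the NC libraries with those of the knockdown.

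Peaks of the 4 lists that overlapped were merged into sites, 41 in the 5 loci of 34053 in the genome. FLT3 had 9, KIT 9, CSF1R 10, CSF3R 5 and CSF2RB 8. Of the 41, 15 were in all 4 lists (36.6%, genome 32.2%), 5 in both Kasumi-1 lists alone (12.2%, genome 14.1%), 3 in both MV4-11 lists alone (7.32%, genome 12.4%) and 9 in 1 list (22%, genome 27.4%). FLT3 held 4 of the 5 sites of Kasumi-1 alone, and CSF2RB 4 of the 9 found in 1 list. In Kasumi-1, 1 of 28 NC sites was absent in sh-ANP32B (genome 9.43%) and 4 of 31 sh-ANP32B sites were absent in NC (genome 13.3%). In MV4-11, 10 of 28 NC sites were absent in sh-ANP32B (genome 28.1%) and 5 of 23 sh-ANP32B sites were absent in NC (genome 18.1%). With few sites in each class, nothing particular to the receptors is read from these shares.

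For the 15 sites in all 4 lists, the covered bases in Kasumi-1 were lower in sh-ANP32B at 7 and higher at 8, with a median log2 ratio of 0.0035 (0.03 over 10976 such sites of the genome). In MV4-11 they were lower at 10 and higher at 5, with a median of -0.32 (genome -0.19). The lower ones included the site in the MRPS15 body, whose MV4-11 peaks did not overlap each other. The 5 higher ones included FLT3 intron 15, KIT intron 6 and the CSF2RB start. Between the NC lists the median was 0.17 in the direction of Kasumi-1 (genome 0.24).

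**Figure D5:**
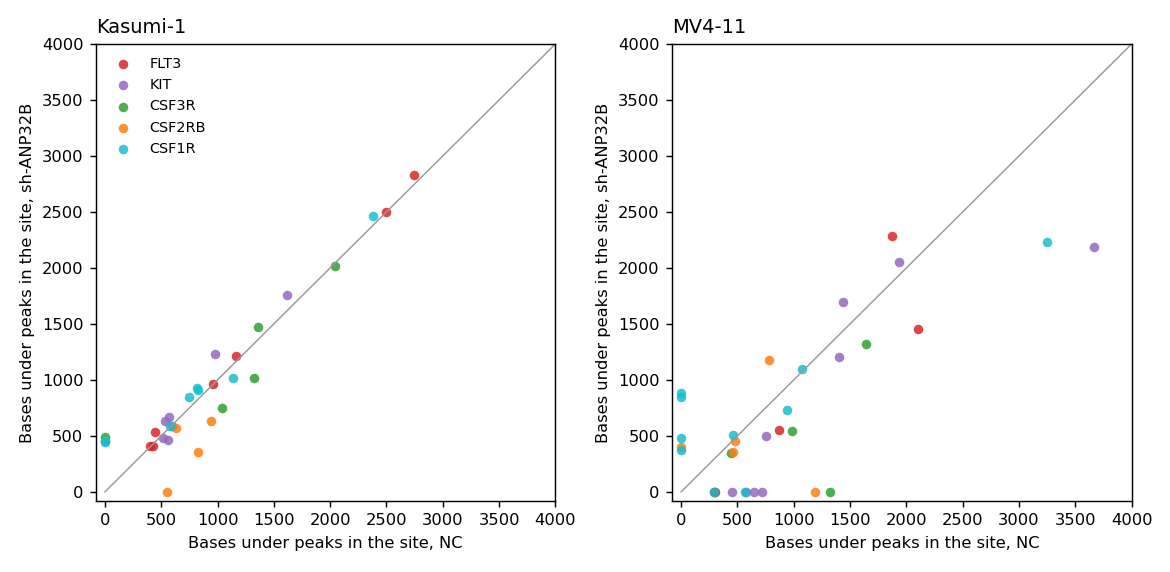
Bases under peaks in each site of the 5 loci, NC on the horizontal axis and sh-ANP32B on the vertical axis, for Kasumi-1 (left) and MV4-11 (right), 1 point per site present in the line. Points on an axis are sites found in 1 of the lists, 1 on the horizontal axis in Kasumi-1 and 10 in MV4-11.

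The other genes of the pathway were taken from a list of 56 receptors, ligands and signalling proteins, of which 34, 32, 30 and 28 were marked at the promoter, beside 47.7%, 45.3%, 35.8% and 28.6% of all genes. Of 18 receptors, 9, 9, 8 and 9 were. CSF2RA, the GM-CSF alpha chain that pairs with CSF2RB, had 641, 609, 449 and 317 bases. IL3RA, the IL-3 alpha chain, had 1867 and 1414 bases in Kasumi-1 and none in MV4-11. Both lie in the region shared by the X and Y chromosomes, where reads cannot be assigned to either, and are given on X. IL7R had 676 bases in MV4-11 sh-ANP32B alone, and PDGFRA, PDGFRB and EPOR had none in any list.

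Of 11 ligand genes, none had a promoter peak except FLT3LG, with 320 bases in MV4-11 sh-ANP32B alone, so the genes of CSF1, IL34, KITLG, CSF2 and CSF3 were without one in all 4 lists. Of 27 kinases, adaptors and inhibitors, 25, 23, 22 and 18 had a promoter peak, beside 47.7%, 45.3%, 35.8% and 28.6% of all genes. In Kasumi-1 the peaks of JAK1 (528 bases) and SHC1 (399 bases) were absent after knockdown. In MV4-11 those of the adaptor GAB1 (744 bases), the Ras exchange factor SOS1 (1805 bases), the ubiquitin ligase CBL (409 bases) and the inhibitors SOCS2 (489 bases) and SOCS3 (310 bases) were absent after knockdown, and the adaptor GAB2 had 463 bases in sh-ANP32B alone. STAT5A had 3693, 3470, 385 and 1231 bases, and JAK2, the kinase used by CSF2RB, 1722, 1760, 1113 and 747 bases. Across the pathway list, knockdown lists lacked 2 of 34 promoter peaks of the Kasumi-1 control (6.79% among all genes with one in the control) and 5 of 30 of the MV4-11 control (24.4%), and 0 and 3 genes had one in the knockdown list alone (1.60% and 2.45% among all genes with none in the control).

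The genes outside each locus with the most similar levels were found by the largest absolute difference over the 4 libraries in bases under peaks per kb of gene body plus 50 kb. For FLT3 these were POU2F3 (1.16 bases per kb), RAP1GAP2 (1.46) and TRIM29 (1.79), and for CSF1R TEX2 (3.08) and ZBED5 (3.31). For CSF3R they were ACSF2 (2.19), ENSG00000280537 (2.44) and SNRPG (2.72), and for CSF2RB YARS1 (1.53), S100PBP (2.15) and SEC23IP (2.81). For KIT, on 50 kb flanks, they were INTS10 (1.41), ENSG00000289809 (1.6) and ST8SIA4 (1.88). These are likenesses of 4 numbers from 4 libraries.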

How the data were processed

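H3K27ac CUT&Tag peak lists of 4 libraries, 1 per group, were used, and the 2 IgG samples are not analysed here. The authors aligned reads to hg38, removed PCR duplicates, merged replicates and called peaks with a MACS caller at a q-value of 0.01. The submitters' processing notes name Bowtie2 2.4.4 and MACS3 3.0, and the study's methods name other versions and MACS2. Whether IgG served as the control in peak calling is not stated. The deposited lists give start, end and length of each peak in bases and hold no signal, no score and no reads.

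Lists were read with Python 3.11.15, numpy 2.4.6 and pandas 2.3.3. All 96832 peaks lay on 195 sequence names of the hg38 reference. Gene bodies and canonical starts came from GENCODE 44, with 1 entry per symbol. Bases under peaks were counted in promoter windows and loci, with 500 bases added to both sides of a ratio, and 1.5-fold was the size at which a difference was counted. Peaks overlapping by 1 base made 1 site, present in a list with any peak there. The interval code was tested on simulated peaks. All genes formed the background, on 50 kb flanks.

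The receptors, the gene lists and the alternatives were chosen with earlier results of these data known. Named were the 5 receptors, genes starting in their loci, the 3 genes most alike to each, and pathway genes with a promoter peak in 1 library of a line. Peaks named by rule were the widest of each locus, sites in all 4 lists, and sites of at least 1000 bases in 1 library of a line. Some genes and sequences that these rules name are not reported here. Other sites and pathway genes, the printed sequences and the motifs were chosen after their values were seen. The alternatives were other windows, starts and flanks, other treatment of narrow or close peaks, another number of added bases, scaling to covered length, and stricter or looser sharing of sites.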

Additional observations from a re-analysis of the deposited data

Results flagged for a closer look

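At FLT3 and KIT the covered bases were higher in sh-ANP32B than in NC in Kasumi-1 and lower in MV4-11. At FLT3 the log2 ratio of sh-ANP32B over NC was 0.035 in Kasumi-1 and -0.31 in MV4-11, and at KIT it was 0.11 in Kasumi-1 and -0.57 in MV4-11. Each arm is 1 library, and how the lines differ could not be tested. The median over all genes was 0.019 in Kasumi-1 and -0.31 in MV4-11, so the FLT3 values stood at percentiles 54.4 and 50.3 of all genes and the KIT values at 70.8 and 30.7. The KIT percentiles set 100 kb flanks against 50 kb flanks for all genes and are not like for like. With 50 kb flanks KIT had 2769 bases in NC and 2820 in sh-ANP32B in Kasumi-1, and 5423 and 4951 in MV4-11. Scaled to covered length, FLT3 was at -0.0047 and -0.06, and KIT at 0.07 and -0.31. The opposite sign at KIT depended on the flank and its size on peak width: in MV4-11 the ratio was 0.02 in the gene body and -0.12 with 25 kb flanks, and in Kasumi-1 it was 0.86 with peaks of 1000 bases or more and 2.60 with the 10000 widest peaks. Both of these Kasumi-1 values came from KIT peaks just under a limit in NC and above it in sh-ANP32B.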

How the results depend on the processing

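No paired analysis was possible because each group has 1 list and the result comes from no test. There is no replicate to leave out, and depth is unknown. Of the counts under the alternatives, 34 moved and 92 stayed within 1.5 times. Of the single members' ratios, 132 stayed on their side of 1.5-fold, 10 went past it, 5 came back within it and 3 went past it with the other sign (CSF1R in MV4-11 and CSF2RB between the NC lists, with limits on width).

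Of the 2 members without an MV4-11 promoter peak after knockdown, 1 was left with a window of 1000 bases, with only peaks of 1000 bases or more, with the 10000 widest peaks of each list, and with a common minimum width of 357 bases and joining gap of 358 bases. A common width drops the 299-base FLT3 peak by construction. With the widest peaks, 1 member had a promoter peak in sh-ANP32B alone in each line, as in MV4-11 with peaks of 1000 bases or more. Members with a promoter peak were 1 in Kasumi-1 NC with the widest peaks, 1 in MV4-11 NC with either limit on width, and 2 in MV4-11 sh-ANP32B with any annotated start.

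Over the loci, 1 member, KIT, was higher in Kasumi-1 after knockdown with either limit on width, where KIT peaks lay near the limits. The count lower in MV4-11 was 0 with 100 kb flanks and 2 with gene bodies, 100 added bases, peaks of 1000 bases or more, or the common width. Between the NC lists, the count lower in Kasumi-1 was 0 with gene bodies and 3 with either limit on width. The count higher in Kasumi-1 was 2 with 100 kb flanks, without other genes' promoters or with peaks of 1000 bases or more, and 0 with gene bodies, scaling or the widest peaks. With 50% of a site required, 8 sites were in all 4 lists, 8 in the Kasumi-1 pair alone, 6 in the MV4-11 pair alone, and 2 Kasumi-1 NC sites were absent in sh-ANP32B. With peaks 1000 bases apart as 1 site, 2 were in the Kasumi-1 pair alone, and 2 in Kasumi-1 and 3 in MV4-11 were in sh-ANP32B and absent in NC. The cause was not tested unless stated.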

Other observations

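Peaks were joined into domains across gaps up to the distance in common use for stitching super-enhancers, and domains were ranked by their summed peak bases within each list. Peaks in promoter windows, such as those at the FLT3, CSF3R, CSF2RB and PAN3 starts, are not part of these domains. The ranks therefore describe peaks away from gene starts. The CSF1R locus held the highest domain among the members in 3 of the 4 lists, at rank 1505 of 7694 and 1482 of 8087 domains in the Kasumi-1 control and knockdown and 1103 of 9273 in the MV4-11 knockdown. In the Kasumi-1 lists that domain lay upstream, with 3947 and 4237 bases in 4 peaks. In MV4-11 sh-ANP32B it lay within the gene and past its 3′ end, with 3817 bases in 5 peaks, and in MV4-11 NC the upstream domain led with 3248 bases at rank 1698 of 9997.

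With its flanks of 100 kb, the KIT locus held the highest domain among the members in MV4-11 NC. It was the group of 5 peaks downstream of the gene, with 6157 bases at rank 647 of 9997, or the top 6.47% of domains. This group begins 76853 bases past the gene end, beyond the reach of the 50 kb flanks used for the other members. In MV4-11 sh-ANP32B the corresponding domain had 4 peaks and 2693 bases, at rank 1812 of 9273, and in the Kasumi-1 lists 2602 bases at rank 2332 of 7694 and 3027 bases at rank 2192 of 8087. With the peaks around its start left out, the highest FLT3 domain was the intron 15 peak by itself in all 4 lists. It stood between the top 23.7% and the top 32.3% of domains.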
